A study of Mus musculus with 6 samples.

Results

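Spindle assembly and microtubule regulation were followed in V720 cells through 10 genes: Tpx2, Hmmr, Nusap1, Prc1, Aspm, Dlgap5, Ckap2, Ckap5, Tacc3 and Stmn1. They were taken as the probe sets whose single annotated gene symbol is 1 of these names, which gave 29 probe sets for 10 genes out of 45037 non-control probe sets, of which 34945 named a single gene and together named 18193 genes. V720 is a mouse breast cancer line, with mammary epithelium given as its tissue. One group of 3 samples was cultured for 24 h with 1 µM PD0332991 (palbociclib), a drug that blocks the cyclin D-dependent kinases CDK4 and CDK6. The other group of 3 received vehicle for the same 24 h, in the same serum-supplemented medium. No genetic change, promoter or clone is described for either group. Total RNA of each sample was hybridized to its own Affymetrix array. The design text speaks of biological triplicates without saying which step was separate. The p-values therefore set the group difference against the spread between these samples, whichever step separated them.

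The mitotic spindle is built from microtubules, polymers of tubulin that grow from centrosomes, around chromosomes and from the sides of other microtubules. The proteins followed here nucleate, lengthen, cross-link or destabilize those polymers, and most of them accumulate in G2 and mitosis and are degraded as mitosis ends. Their transcripts are low in resting cells, where the DREAM complex represses late cell cycle genes, and rise toward mitosis under B-Myb and FoxM1. CDK4 and CDK6 act far upstream of this, at the G1 step where the retinoblastoma family is phosphorylated.

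The arrays were at a like level, with median probe-set intensities of 69.56 to 71.09 with PD0332991 and 71.26 to 72.74 with vehicle. Correlations across probe sets were 0.9958 to 0.9964 between arrays of the same group and 0.9913 to 0.9920 between arrays of different groups. The luminal epithelial markers Krt8, Krt18 and Epcam were bright in both groups, at 10596, 12866 and 9662 in the PD0332991 mean and 9981, 12265 and 9635 in the vehicle mean, while Krt19 was close to 1 and the basal keratins Krt5 and Krt14 were below 50. Of the 14 epithelial markers, 4 were called: Cldn4 and Krt7 were 1.54-fold and 1.15-fold higher, and Elf3 and Ehf 1.32-fold and 1.26-fold lower. Ehf was called on 2 of its 4 probe sets, which reached up to a log2 fold change of 0.12. Markers of fibroblasts, endothelium and adipocytes were dim: 6 of 8, 6 of 6 and 4 of 4 measured had a mean under 50. Of these, Pdgfra was called lower on 1 of its 3 probe sets (log2 fold change -0.52) and Emcn on its single one (-0.43). Emcn was very dim, with means of 5.7 with PD0332991 and 13.2 with vehicle. Of 9 leukocyte markers, 7 had a mean under 50 and 2 were called higher (Cd68 and Ptprc). Cd68, the brightest of the 9, had means of 308 with PD0332991 and 230 with vehicle. Ptprc was very dim, with 18.2 and 11.6, and was called on 1 of its 2 probe sets. The summed intensity of the 9 was 513 to 539.95 with PD0332991 and 401 to 442 with vehicle, and their part in the results below was not tested.

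All 10 genes fell with PD0332991, each by its brightest probe set, which leads the gene below. The falls ran from 4.01-fold for Aspm to 1.59-fold for Ckap5, and the median log2 fold change of the 10 genes was -1.66, against 0.0048 over all 18193 genes. Each probe set was compared with limma on log2(intensity + 16), with Benjamini-Hochberg adjustment over all 45037 probe sets and a threshold of 0.05. A fold change is on that scale and understates the change of dim probe sets. By this test 28 of the 29 probe sets were called lower, where 8.19% of all probe sets were. By gene, 10 of 10 were called lower, where 9.05% of all genes were, and 9 of the 10 were at least 2-fold lower, where 1.15% of all genes were. In all 29 probe sets each PD0332991 array lay below each vehicle array, as 18.5% of all probe sets did, and 22 of the 29 were at least 2-fold lower, where 0.806% of all probe sets were. In RNA from whole cultures, fewer cells in G2 and mitosis and less RNA per such cell cannot be told apart.

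**Figure D1:**
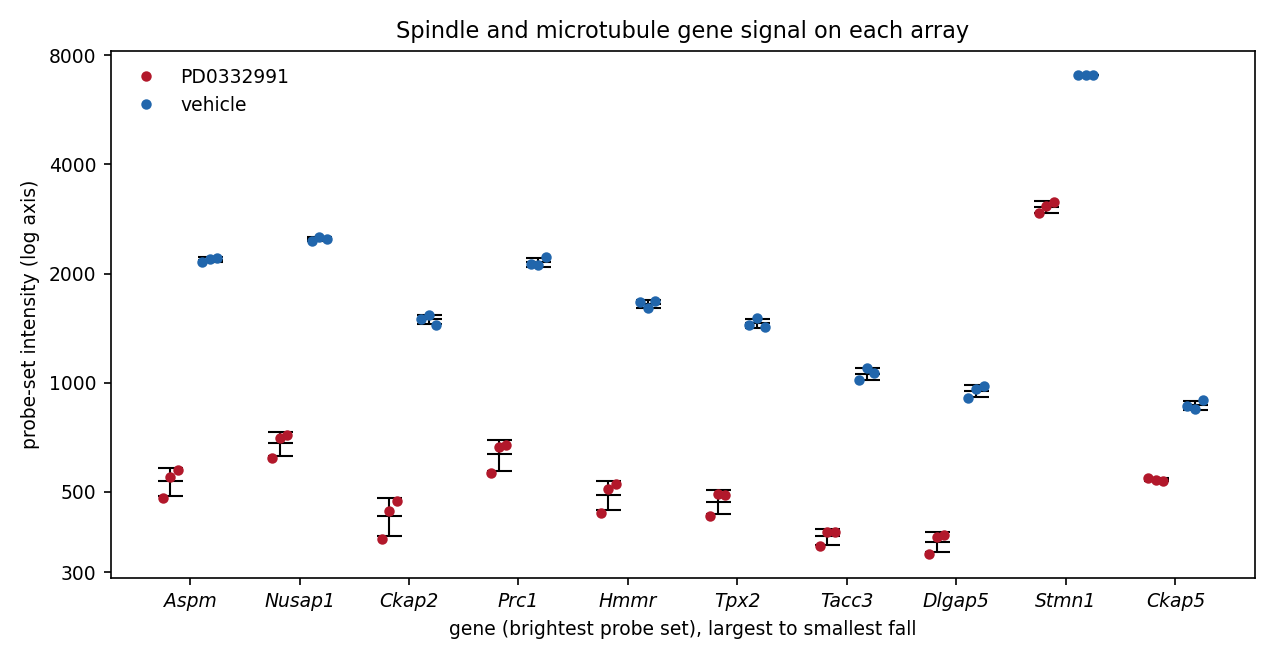
Intensity of the brightest probe set of each gene on each array (log axis), with PD0332991 arrays on the left and vehicle arrays on the right of each gene. Points are arrays and black bars the mean ± SD (n = 3). The groups are apart in all 10 genes, and the first PD0332991 array is the lowest of its group in 9 of them.

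Among the factors that nucleate and stabilise microtubules near chromosomes, Tpx2 (chromosome 2) is the Ran-regulated activator of Aurora A. Its leading probe set, 1428104_at, had intensities of 428, 493 and 491 with PD0332991 and 1446, 1507 and 1422 with vehicle. The groups were far apart relative to their own spread, the means being 471 ± 36.6 and 1458 ± 43.9 (SD, n = 3 each), a 3.04-fold lower value (log2 difference -1.60, SE 0.07, adjusted p = 0.000119). Hmmr (chromosome 11), a spindle-associated hyaluronan receptor that helps place TPX2, read 438, 509 and 526 with PD0332991 and 1674, 1607 and 1679 with vehicle on 1425815_a_at. It was thus 3.30-fold lower (log2 difference -1.72, SE 0.08, adjusted p = 0.000137), and the lowest vehicle array was more than 3 times as bright as the highest PD0332991 array. Dlgap5 (chromosome 14) encodes HURP, which binds kinetochore fibres next to the chromosomes. On 1455730_at it gave 338, 375 and 381 with PD0332991 and 909.5, 963 and 978 with vehicle (log2 fold change -1.34, SE 0.06, adjusted p = 0.000157).

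Tacc3 and Ckap5 encode partners in the bridge that holds kinetochore-fibre microtubules together with clathrin, and they fell by unequal amounts. Tacc3 (chromosome 5), an Aurora A substrate, had intensities of 355, 388 and 388 with PD0332991 and 1016, 1099 and 1062 with vehicle on 1417450_a_at, a 2.74-fold lower value (log2 difference -1.45, SE 0.06, adjusted p = 0.000101). Ckap5 (chromosome 2) encodes chTOG, a microtubule polymerase that also works in interphase. On 1437349_at its intensities were 546, 539.6 and 536 with PD0332991 and 861, 844 and 894 with vehicle. The PD0332991 arrays agreed closely (540.4 ± 4.98, SD, n = 3), and the level was 1.59-fold lower (log2 difference -0.67, SE 0.04, adjusted p = 0.000497). The 95% interval of Ckap5, -0.77 to -0.56, lay above the intervals of all the other 9 genes.

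On their brightest probe sets, Nusap1 and Prc1 gave larger falls than Tacc3 and Ckap5. Nusap1 (chromosome 2), which bundles microtubules around chromosomes, had intensities of 622, 703 and 718 with PD0332991 and 2456, 2518 and 2493 with vehicle on 1416309_at. This was a 3.60-fold lower value (log2 difference -1.85, SE 0.06, adjusted p = 8.97e-05). Prc1 (chromosome 7) bundles the antiparallel microtubules of the central spindle in anaphase. Its probe set 1423775_s_at gave 563, 667 and 674 with PD0332991 and 2124, 2107 and 2217 with vehicle (log2 fold change -1.74, SE 0.08, adjusted p = 0.000146). For both genes the vehicle arrays were more than 3 times as bright as any PD0332991 array.

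At the spindle poles, Aspm (chromosome 1), which holds microtubule minus ends together with katanin, showed the largest fall of the 10 by brightest probe set. With its 5 probe sets averaged its log2 fold change was -1.40, behind Prc1 (-1.79), Ckap2 (-1.77) and Hmmr (-1.54). The brightest, 1422814_at, had intensities of 481, 549 and 574 with PD0332991 and 2148, 2193 and 2214 with vehicle (log2 fold change -2.0025, SE 0.07, adjusted p = 9.07e-05). Ckap2 (chromosome 8), a spindle protein that promotes microtubule nucleation, had a single probe set, 1434748_at. It gave 372, 442 and 473 with PD0332991 and 1501, 1539 and 1448 with vehicle, a 3.41-fold lower value (log2 difference -1.77, SE 0.09, adjusted p = 0.000233). The spread between PD0332991 arrays was wider here than in any other leading probe set relative to the mean (429 ± 51.9 against 1496 ± 45.9 with vehicle, SD, n = 3 each), but the groups stayed apart.

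Stmn1 (chromosome 4) encodes stathmin, which sequesters tubulin dimers, promotes the loss of microtubules and is switched off by phosphorylation when cells enter mitosis. It works against microtubule assembly, unlike the other 9, and its direction was the same. The leading probe set, 1415849_s_at, had intensities of 2939.8, 3072 and 3159 with PD0332991 and 7056, 7042 and 7072 with vehicle. This was a 2.30-fold lower value (log2 difference -1.20, SE 0.04, adjusted p = 9.33e-05), on a probe set whose suffix, _s_at, marks probes shared between transcripts. The other probe set, 1448113_at, gave 836, 830.0 and 862 with PD0332991 and 2419, 2568 and 2473 with vehicle (log2 fold change -1.54, SE 0.04). The 95% intervals of the pair, -1.31 to -1.09 and -1.65 to -1.43, do not overlap, so that the size of the fall depends on the probe set.

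Ordered by size, the log2 fold changes were -2.0025 for Aspm, -1.85 for Nusap1, -1.77 for Ckap2, -1.74 for Prc1, -1.72 for Hmmr, -1.60 for Tpx2, -1.45 for Tacc3, -1.34 for Dlgap5, -1.20 for Stmn1 and -0.67 for Ckap5. The 95% intervals overlapped in 8 of the 9 neighbouring pairs, and the step from Stmn1 to Ckap5, 0.54 on the log2 scale, was the exception. The 9 steps were also tested on the log2 difference of the 2 genes within each array. In the 3 steps from Nusap1 to Hmmr and in that from Hmmr to Tpx2 these differences overlapped between the groups, so that the order from Nusap1 down to Tpx2 is not settled by these arrays. In the other 5 steps they did not overlap. Each had p = 0.1 in an exact two-sided permutation test, the smallest that 3 against 3 arrays allow. After Benjamini-Hochberg adjustment over the 9 it was 0.18. The neighbours were set by sorting the same fold changes, so that this test does not settle these 5 steps either. The order also depends on the probe sets. With all of a gene's probe sets averaged, Stmn1 (-1.37) fell more than Nusap1 (-1.30), Tpx2 (-1.26), Dlgap5 (-1.20) and Tacc3 (-1.17). Ckap5 (-0.58) still fell least.

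The arrays of the PD0332991 group did not sit equally low. PD0332991 replicate 1 was the lowest of its group in 9 of the 10 leading probe sets, all but that of Ckap5, and in 21 of the 29 probe sets (72.4%). That array was the lowest of the 3 in 44% of the 3690 probe sets called lower and in 37.5% of all probe sets. The low standing was not particular to the 10 genes. Of the binding partners and regulators described below, 15 were at least 2-fold lower. The same array was the lowest of its group in all of these but Cit. The median deviation of the 10 genes from their group mean was -0.13 on the log2 scale on that array, 0.04 and 0.07 on the other PD0332991 arrays, and between -0.01 and 0.01 on the vehicle arrays. Over all probe sets the median deviation of PD0332991 replicate 1 was -0.01. Without this array all 10 genes were still called lower, their median log2 fold change was -1.59, and the values were -1.93 for Aspm and -0.67 for Ckap5.

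Several genes were read by more than 1 probe set, and the dimmer ones mostly gave smaller falls. Aspm had 5: the second brightest, 1452459_at, had a log2 fold change of -2.11, while 1458873_at and 1441520_at gave -1.23 and -1.13. The remaining one, 1458560_at, was the only probe set of the 29 not called. It read 29.5, 55.9 and 51.4 with PD0332991 and 65.7, 89.3 and 63.96 with vehicle (log2 fold change -0.55, SE 0.20, adjusted p = 0.146), so that its groups differed by little more than their spread. The 5 probe sets of Hmmr ranged from -1.77 to -1.04. The smallest, on 1450157_a_at, came with intensities of 128, 140.0 and 140.2 with PD0332991 and 279, 320.2 and 290.2 with vehicle, while 1450156_a_at, with a like PD0332991 mean (133.9 ± 7.16 against 475.5 ± 20.9 with vehicle, SD, n = 3 each), gave -1.71.

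In Tpx2 the dim pair 1447518_at and 1447519_x_at, annotated with the same accession, gave -0.43 and -1.32. Their PD0332991 means were alike, 38.0 ± 3.69 and 37.6 ± 5.54, and their vehicle means were 56.8 ± 1.88 and 117 ± 3.78 (SD, n = 3 each). The Nusap1 pair, also from 1 accession, gave -1.85 and -0.75, and the weaker one, 1416310_at, read only 27.9 ± 1.79 with PD0332991 and 57.9 ± 8.01 with vehicle (SD, n = 3 each). With a pseudocount of 1 in place of 16 these dim values became -0.57 for 1447518_at, -1.62 for 1447519_x_at and -1.02 for 1416310_at. The Nusap1 pair thus drew closer together, while the dim Tpx2 pair drew further apart. The Tacc3 probe sets gave -1.45, -1.08 and -0.97, those of Dlgap5 -1.34 and -1.06, those of Prc1 -1.84 and -1.74, and those of Ckap5 -0.67, -0.66 and -0.41. Ckap5 was thus the gene with the smallest fall on its brightest probe set, and its dimmer probe sets also stayed under 2-fold.

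**Figure D2:**
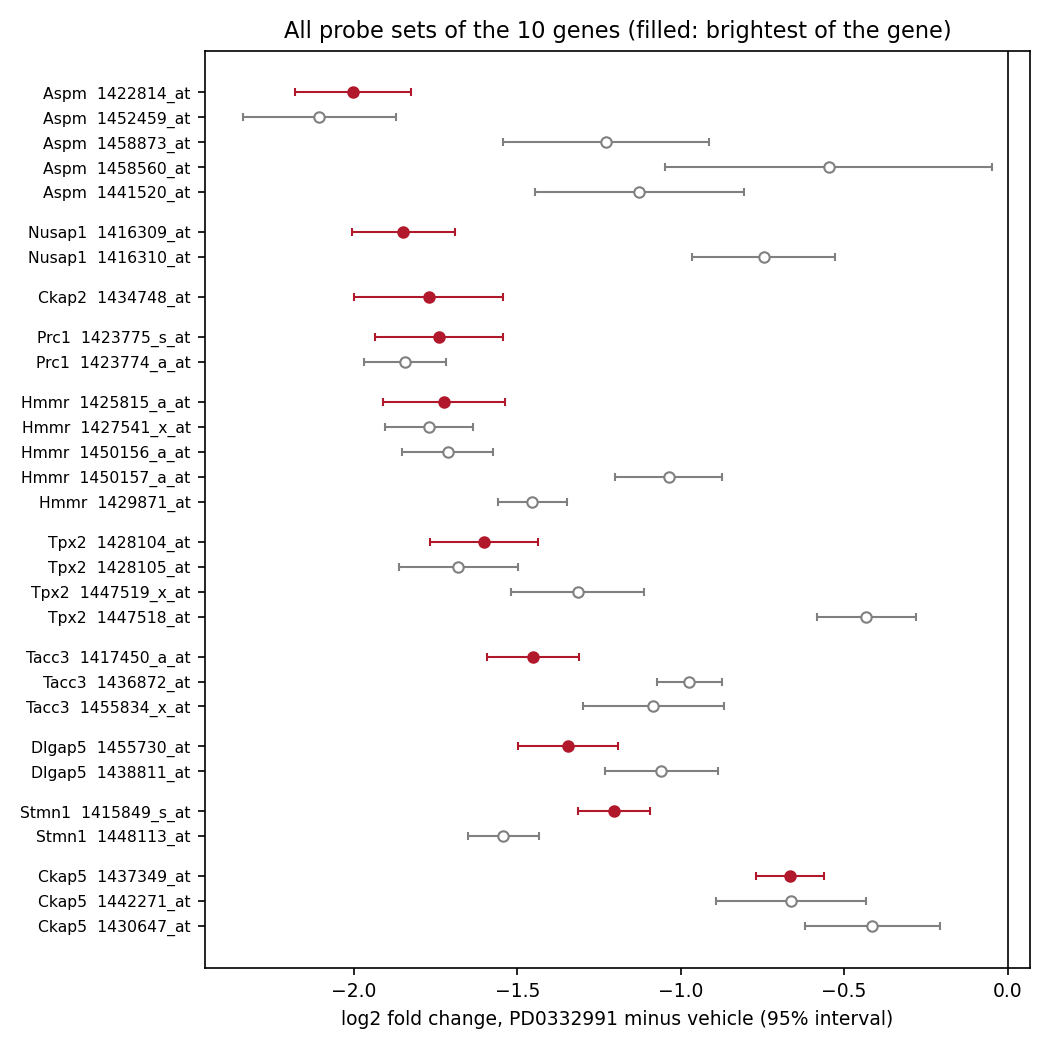
Log2 fold change (PD0332991 minus vehicle) of all 29 probe sets with 95% intervals, grouped by gene and ordered from bright to dim within a gene. Filled points are the brightest probe set of a gene. All 29 values are below 0, from -2.11 to -0.41.

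The genes were next described by the promoter sequences that RefSeq lists for them (build GRCm38.p6), 250 bases before to 50 after the start. Of the 10 genes, 7 matched an entry, with 8 promoters in all, since Prc1 has a pair that lie close together. The letters searched, on both strands, were TTTGAA, the core of the cell cycle genes homology region (CHR) to which the MuvB core of DREAM binds; TTTAAA, a variant of it; CCAAT, the box bound by NF-Y; and TTTGGCGC and TTTCGCGC, forms of the E2F site. Matches of TTTGAA and CCAAT were found in the same 5 of 7 genes, Aspm, Ckap5, Prc1, Ckap2 and Hmmr. Of all 27025 genes in the table, 20.2% have a promoter with TTTGAA, 41.1% one with CCAAT and 7.97% one with both. Counted by promoter, both were in 6 of the 8, where 17.9% of all 32851 promoters hold TTTGAA, 37.4% CCAAT and 6.95% both. TTTAAA occurred in 2 of the 7 genes, Aspm and Ckap5, and in 14.9% of all genes, and the E2F forms in none of the 7 and in 0.585% and 0.374% of all genes. No TTTGAA overlapped a CCAAT.

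The stretch from 150 bases before to 20 after the start is shown for the 5 genes with matches and for Nusap1, which has none although it fell 3.60-fold. Each is written 5′ to 3′ along the gene's own strand, and capitals mark TTTGAA and CCAAT or their reverse complements.
Aspm: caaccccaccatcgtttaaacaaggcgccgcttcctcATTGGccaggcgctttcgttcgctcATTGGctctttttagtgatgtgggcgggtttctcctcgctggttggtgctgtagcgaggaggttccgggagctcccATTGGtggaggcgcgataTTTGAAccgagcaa
Hmmr: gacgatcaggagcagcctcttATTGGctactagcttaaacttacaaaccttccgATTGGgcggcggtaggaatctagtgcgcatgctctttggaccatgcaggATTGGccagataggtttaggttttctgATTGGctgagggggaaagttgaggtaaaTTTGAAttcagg
Prc1: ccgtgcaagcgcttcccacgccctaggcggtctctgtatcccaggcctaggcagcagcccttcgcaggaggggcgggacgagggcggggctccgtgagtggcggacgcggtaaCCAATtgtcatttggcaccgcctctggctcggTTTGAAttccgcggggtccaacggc
Ckap2: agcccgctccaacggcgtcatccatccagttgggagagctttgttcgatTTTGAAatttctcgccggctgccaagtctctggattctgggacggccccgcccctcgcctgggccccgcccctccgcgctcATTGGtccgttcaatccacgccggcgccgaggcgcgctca
Ckap5: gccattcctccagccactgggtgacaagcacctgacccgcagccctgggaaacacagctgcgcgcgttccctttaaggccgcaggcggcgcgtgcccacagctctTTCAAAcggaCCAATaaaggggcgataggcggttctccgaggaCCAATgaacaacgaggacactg
Nusap1: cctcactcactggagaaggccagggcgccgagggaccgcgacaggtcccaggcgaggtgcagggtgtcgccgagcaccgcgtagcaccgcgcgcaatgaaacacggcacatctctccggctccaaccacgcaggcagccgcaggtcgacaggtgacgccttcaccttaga

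These stretches lie at chr1:139454623-139454792 (plus strand) for Aspm, chr11:40733418-40733587 (minus) for Hmmr, chr7:80294301-80294470 (plus) for Prc1, chr8:22185800-22185969 (minus) for Ckap2, chr2:91526612-91526781 (plus) for Ckap5 and chr2:119618148-119618317 (plus) for Nusap1. The start used for Aspm is 585 bases from the outermost annotated start of that gene, and those of the other 5 are within 27 bases. In Prc1, TTTGAA begins 5 bases before the first listed start, with CCAAT 37 bases before it. From the second listed start of Prc1 these positions are -30 and -62. In Hmmr TTTGAA begins at base 9 after the start, with 5 CCAAT matches upstream, and in Aspm at base 7 with 3 matches upstream. In these 3 genes the hexamer lies downstream of the box, within 10 bases of the start (the first listed of Prc1). In Ckap2 the hexamer begins 101 bases before the start, upstream of a CCAAT at 20 bases before it. Ckap5 holds the hexamer on the opposite strand, 45 bases before the start, with CCAAT 35 and 2 bases before it. The presence of both matches did not follow the size of the fall among the 7 genes: Ckap5, with both, fell least, while Nusap1 and Tacc3, with neither, fell 3.60-fold and 2.74-fold. A match is a description of letters and not a shown binding site, and no match says only that these letters are not in this window.

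**Figure D3:**
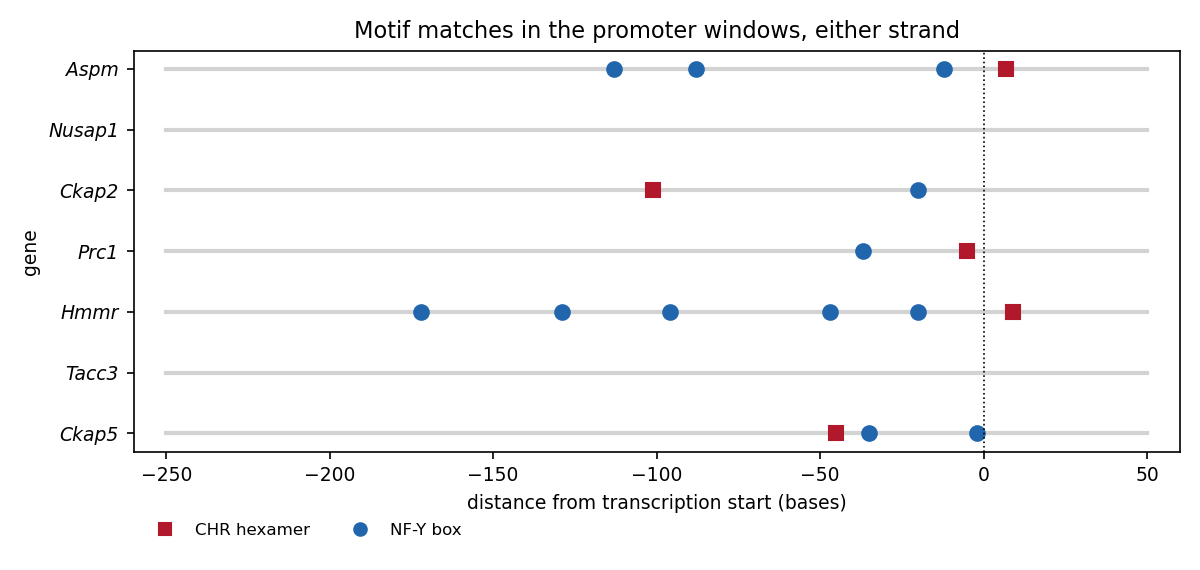
Positions of the CHR hexamer (squares) and the NF-Y box (circles) on either strand, from 250 bases before to 50 after the start, in the 7 genes with a listed promoter (the first listed of Prc1). Genes run from the largest fall at the top to the smallest at the bottom. Matches stand in 5 of the 7, and Nusap1 and Tacc3 have none.

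The other genes of the pathway were described by 4 lists, each gene by its brightest probe set (7 listed genes were not analysed here). Among binding partners and regulators of the 10 genes, 21 of 28 measured were called lower and 1 higher, where 9.05% and 7.80% of all genes were. The median log2 difference over this list was -1.08, and 15 of its genes were at least 2-fold lower, where 1.15% of all genes were. The 2 transcription factors fell: Foxm1, which activates G2 and mitotic genes, read 65.9, 68.6 and 68.4 with PD0332991 and 230.2, 250.9 and 214 with vehicle, a 2.96-fold lower level (adjusted p = 0.000116). Mybl2, which encodes B-Myb, was 2.08-fold lower (adjusted p = 0.000164) on the brighter of its 2 probe sets and 1.38-fold lower on the other. Another 2 of the 4 Foxm1 probe sets were called lower by less, 1.79-fold and 1.63-fold. The dimmest was not called (-0.36). Of the kinases, Aurka, which TPX2 activates, had intensities of 290.0, 337 and 314 with PD0332991 and 999, 994 and 1028 with vehicle. This was a 3.11-fold lower level, close to that of Tpx2 by brightest probe set. On its other, dim probe set Aurka was called lower by 1.88-fold. Aurkb, of the chromosomal passenger complex, was 3.45-fold lower.

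Of the motor proteins that work with the 10, Kif11, which pushes the spindle poles apart, was 3.65-fold lower. Its intensities were 364, 416 and 435 with PD0332991 and 1502, 1550.0 and 1497 with vehicle. On its dimmer probe sets Kif11 was 3.38-fold and 2.15-fold lower. Kif20a and Kif20b, kinesins of the central spindle and of abscission, were 3.95-fold and 2.85-fold lower. Clathrin behaved otherwise. Cltc, the heavy chain that TACC3 and chTOG join on the spindle, read 7788, 7574 and 7671 with PD0332991 and 7274, 7749.7 and 7545 with vehicle. Its groups overlapped, with a log2 fold change of 0.03 (95% interval -0.08 to 0.14, adjusted p = 0.729). Pik3c2a, a lipid kinase that also binds the TACC3 and clathrin bridge, was the 1 gene called higher, with intensities of 3268, 3338 and 3481 with PD0332991 and 2530.2, 2577 and 2678 with vehicle (1.29-fold, adjusted p = 0.00625, on 1 of its 3 probe sets).

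Of 36 other spindle assembly and centrosome factors, 23 were called lower and 1 higher, where 9.05% and 7.80% of all genes were. Their median log2 difference was -0.35, and 5 were at least 2-fold lower, against 1.15% of all genes. Knstrn, a partner of astrin at kinetochores and poles, was 3.07-fold lower, with 4 of its 5 probe sets called. Haus4, of the augmin complex that starts branch microtubules, was 2.29-fold lower, with intensities of 418, 419.9 and 441 with PD0332991 and 950.3, 1023 and 1013 with vehicle. This was the largest fall of the listed augmin (Haus) genes, with Haus5 next (1.72-fold) and Haus2 not called (log2 fold change -0.07). Mapre2, an end-binding protein, was called higher by 1.17-fold (adjusted p = 0.0231) on 1 of its 5 probe sets, the others not being called. Among relatives of the 10, Ckap2l, the paralog of Ckap2, fell 3.11-fold and read 587, 666 and 652 with PD0332991 and 1983, 2006 and 2018 with vehicle. The Tacc3 relatives did not pass on their brightest probe sets. Tacc1 had a log2 fold change of -0.29 (95% interval -0.50 to -0.08, adjusted p = 0.0801) and Tacc2 of -0.02 (-0.16 to 0.13, adjusted p = 0.895). A second Tacc1 probe set was called lower, with -0.18.

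Of the tubulins and their folding cofactors, 4 of 20 measured were called lower and 3 higher, where 9.05% and 7.80% of all genes were, and the median log2 difference over the list was -0.02. Those called lower were Tube1 and Tubd1, the epsilon and delta tubulins of centrioles, and the beta tubulins Tubb6 and Tubb5. Tube1 read 70.6, 70.9 and 82.0 with PD0332991 and 195, 196 and 195 with vehicle, a 2.34-fold lower level on the brightest of 3 probe sets that were all called lower. Tubd1 was 1.45-fold lower, and Tubb6 1.84-fold lower on 1 of its 2 probe sets, the other giving 0.06. Tubb5, a main beta tubulin of dividing cells, was 1.20-fold lower (6517, 6950.4 and 7108 with PD0332991 and 8022, 8232 and 8377 with vehicle, adjusted p = 0.0245). Tubb2a, Tuba1a and Tubb2b were called higher by 1.17-fold, 1.14-fold and 1.20-fold, Tubb2a on 1 of its 2 probe sets. Tubulin isotypes have near-identical copies, so that some of these probe sets may read several of them.

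Among 39 interphase microtubule-associated, severing and stathmin-family genes, 4 were called lower and 2 higher, where 9.05% and 7.80% of all genes were, and the median log2 difference over the list was 0.02. Fignl1, an ATPase related to severing enzymes that acts in recombination, was 2.04-fold lower on 1 of its 2 probe sets (the other gave -0.10), with intensities of 821, 823 and 847 with PD0332991 and 1665, 1783 and 1693 with vehicle. Cep57, a centrosomal protein, was 1.43-fold lower and Ttl, the tubulin tyrosine ligase, 1.23-fold lower on 1 of its 5 probe sets. The count of 4 fell to 2 without vehicle replicate 1 and to 2 without vehicle replicate 3. Map1b, a microtubule stabiliser best known from neurons, was called higher by 1.41-fold, with 2 of its 3 probe sets called and another at -0.13. Mark4, a kinase of microtubule-associated proteins, was called higher by 1.17-fold on 1 of its 3 probe sets. The stathmin relatives Stmn2, Stmn3 and Stmn4 were dim, with PD0332991 means of 18.9 ± 2.45, 27.6 ± 3.67 and 51.0 ± 9.61 and vehicle means of 17.9 ± 3.37, 26.4 ± 1.28 and 54.7 ± 14.7 (SD, n = 3 each), and none was called (adjusted p = 0.793 to 0.868). The rises in the 4 lists, 7 in all, depend on the scaling and on the use of all 6 arrays. With spike-in centring the 4 lists held 0 higher calls. With 1 array left out, whichever it was, they held 1 to 3.

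**Figure D4:**
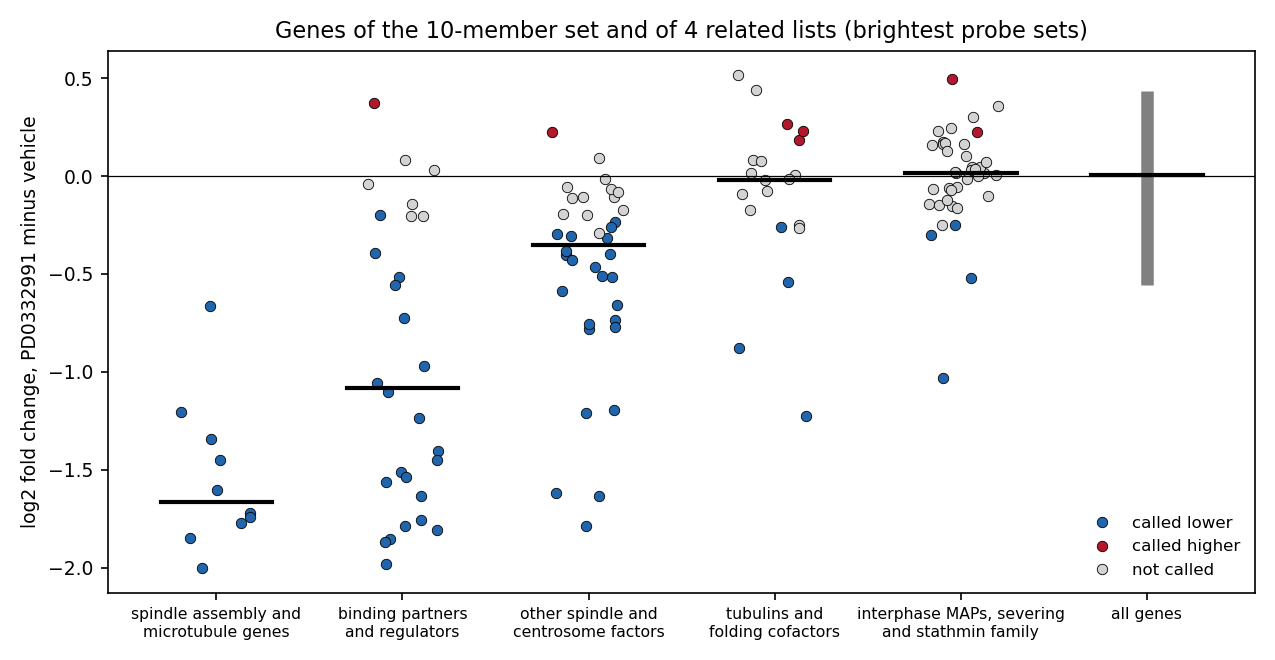
Log2 fold change (PD0332991 minus vehicle) of each gene by its brightest probe set, for the 10 genes, for 4 lists of related genes and for all 18193 genes. Points are genes, coloured by call, thick lines are medians (-1.66, -1.08, -0.35, -0.02, 0.02 and 0.0048 from left to right), and the grey bar spans the central 95% of all genes (-0.56 to 0.43).

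The genes most like the 10 were found from the 6 log2 values of each gene centred on their mean, set against the median of the same over the 10. By the smallest root mean square difference over the 6 arrays, the 5 nearest were Bub1 (0.022), a spindle checkpoint kinase, Ckap2l (0.029), Fbxo5 (0.030), which encodes the APC/C inhibitor EMI1, Sgo2a (0.035), a protector of centromeric cohesion, and Cep55 (0.036), which acts in abscission. Bub1 read 485, 564 and 571 with PD0332991 and 1761, 1784 and 1762 with vehicle.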

How the data were processed

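Biotin-labelled total RNA of 3 PD0332991 and 3 vehicle samples was hybridized to Affymetrix arrays, per the labels' protocols. The deposited table holds 1 linear intensity per probe set and array. How the authors summarised and scaled the intensities is not given in the sources used here, and scaling to a common level would hide any shift of a cell's whole RNA content. The 64 control probe sets were left out. Genes were named from the platform annotation (1 symbol for 34945 probe sets, several for 932, none for 9160); all 10 symbols matched RefSeq (GRCm38.p6) by gene number.

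Intensities were taken as log2(intensity + 16) and fitted in limma 3.58.1 under R 4.3.3 (lmFit, then eBayes) as a two-sided group comparison without a replicate block. Benjamini-Hochberg adjustment ran over all 45037 probe sets, and intervals are 95%. The procedure was tested on simulated data. Python 3.11.15, pandas 2.3.3 and matplotlib 3.10.9 served for promoters and plots. The number of arrays limits the precision. The genes, lists and tests were chosen with earlier results of these data known, and lists are described by counts and medians without a set test. A gene is led by its brightest probe set over the 6 arrays. Of each list, up to 3 genes called higher and 3 called lower with the smallest p are named, beside 13 partners, regulators and relatives named in every case, of which Tuba1b was not analysed here; other gene names were chosen after their values were seen. The alternatives were a replicate block, 3 other scalings, pseudocounts of 1 and 64, a filter on dim probe sets, 1 value per gene, probe-set type, variance model, array weights, a threshold of 0.01 and each array left out.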

Additional observations from a re-analysis of the deposited data

How the results depend on the processing

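All 10 genes were called lower under each of the alternatives run, except that only 9 could be tested without _s_at, _x_at and _a_at probe sets, since Prc1 has no others. Of 199 values of single genes none changed direction or lost its call (log2 fold changes -2.13 to -0.58, highest adjusted p 0.0169). The probe sets called lower among the 29 numbered 26 to 29, but 23 with the filter on dim probe sets and 18 without _s_at, _x_at and _a_at probe sets, where fewer were tested. The median of the 10 genes was -1.79 with spike-in centring, -1.57 with a pseudocount of 64, -1.34 with all probe sets of a gene averaged (Aspm -1.40) and -1.54 without the 3 probe-set types. Spike-in centring shifted the median of all probe sets to -0.13 (-0.06 when vehicle replicate 1, with the lowest spike-ins, was also left out, a setting chosen after seeing the data).

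Over all probe sets, 3690 were lower and 2701 higher. These counts were 1478 and 827 with the replicate block, 1498 and 842 at a threshold of 0.01, and 2445 and 1682 without the 3 probe-set types. Leaving out 1 array gave 2013 to 2240 lower and 1305 to 1560 higher. Higher calls numbered 379 with spike-in centring and 4345 with trend and robust settings; with spike-ins and vehicle replicate 1 left out the counts were 1712 and 473.

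The tubulin list had 2 lower with the block and at 0.01, in place of 4. The interphase list had 2 with the block, at 0.01 and with spike-ins and vehicle replicate 1 left out, and 2 to 4 with 1 array left out. The 7 higher calls of the 4 lists became 2 with the block, 12 with quantile normalization, 0 with spike-in centring with or without vehicle replicate 1, 11 with a pseudocount of 64, 11 with the filter, 3 without the 3 probe-set types, 13 with trend and robust settings, 1 at 0.01 and 1 to 3 with 1 array left out. The causes were not tested. Same-numbered samples deviated together with correlations of -0.03, -0.11 and 0.14, and differently numbered ones with -0.15 to 0.16. These values show no pairing by number, but so few samples cannot exclude one. With the replicate block 26 member probe sets were called. Gene-level settings give no probe-set counts. No call of detection above background was used.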
